A study of Homo sapiens with 12 samples.

Results

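Keratins were followed in HaCaT and TIGK at baseline and after H2O2 exposure. They were taken as the protein-coding genes whose symbol is KRT followed by a number and, for some, a letter from A to C, which gave 55 of the 58735 genes counted, 29 of type I and 26 of type II. HaCaT cells are human skin keratinocytes that became immortal spontaneously, and TIGK cells are keratinocytes of the human gum made immortal with telomerase. Polyadenylated RNA was sequenced from 3 untreated samples and from 3 samples exposed to 5 mM H2O2 for 3 h in each line, which gave 12 libraries in 4 groups, HaCaT control, HaCaT H2O2, TIGK control and TIGK H2O2. Both lines were grown in the same keratinocyte medium, the sources used here name no further genetic change in either, and each tissue is represented by 1 line. The titles of treated replicates 2 and 3 write the formula with other last digits, but the treatment protocol and the methods name H2O2 throughout. The labels do not say that replicates came from separate cultures on separate days, so the p-values measure only the spread between these samples.

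Keratins form the intermediate filaments of epithelial cells. A filament is built from obligate pairs of an acidic type I and a basic type II chain, and the genes of each type lie side by side in a cluster, with KRT18 as a type I gene inside the type II cluster. Basal keratinocytes of skin and gum use KRT5 with KRT14 or KRT15, differentiating epidermal cells switch to KRT1 with KRT10, and wounded or activated cells raise KRT6A, KRT6B, KRT6C, KRT16 and KRT17. Simple epithelia use KRT7, KRT8, KRT18 and KRT19, soft oral mucosa uses KRT4 with KRT13, the cornea KRT3 with KRT12, and hair has a large set of its own. These textbook roles were used to order the genes into classes. Immortalized lines in culture need not follow them.

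Library totals lay between 30426401 and 49034244 counts, and none of 10 keratinocyte markers was at 0 in any group. KRT5 and KRT14 are 2 of these and are keratins themselves, and the other 8 summed to 481347 to 496730 normalized counts in HaCaT control, 397448 to 436125 in HaCaT H2O2, 344207 to 358204 in TIGK control and 312314 to 317305 in TIGK H2O2, lower after H2O2 in both lines. The 6 fibroblast markers summed to 316 to 418 normalized counts in HaCaT control and 304 to 396 in HaCaT H2O2. In TIGK they summed to 791 to 846 at baseline and to 898 to 918 after H2O2. COL1A2 was at 0 in every library of HaCaT control, HaCaT H2O2, TIGK control and TIGK H2O2. In the same order COL1A1 had means of 359, 358, 601 and 653, and DCN of 4.91, 0.712, 197 and 236. The melanocyte, leukocyte and endothelial lists summed to at most 93.8, 5.92 and 59.7. A normalized count is the raw count scaled by the trimmed mean of M-values (TMM) to the mean library size. The mitochondrial chromosome took 6.10% to 6.26% of the counts in HaCaT control, 3.30% to 3.51% in HaCaT H2O2, 3.33% to 3.45% in TIGK control and 1.39% to 1.50% in TIGK H2O2, so shares of all counts moved with it. In bulk RNA, fewer cells that use a gene and less of its RNA per cell cannot be told apart.

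Keratins held 4.15% ± 0.162 (SD, n = 3) of all counts in HaCaT control and 4.81% ± 0.130 in HaCaT H2O2. In TIGK they held 5.16% ± 0.0490 at baseline and 5.94% ± 0.118 after H2O2. The libraries of the 4 groups did not overlap in this share. Outside the mitochondrial chromosome the shares were 4.42%, 4.97%, 5.34% and 6.03% in the same order. The order of the groups was thus kept without the mitochondrial counts. KRT5, KRT6A, KRT14 and KRT17 alone held 85.9% to 91.6% of the keratin counts of a library.

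**Figure D1:**
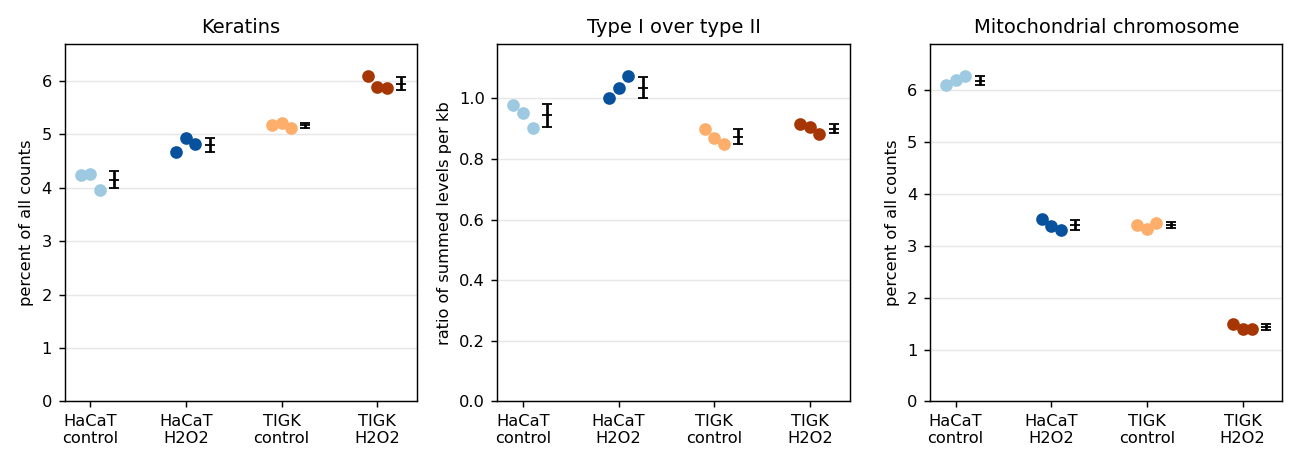
Keratin share of all counts (left), ratio of the summed type I to the summed type II keratin level per kb (middle) and share of counts on the mitochondrial chromosome (right) in the 12 libraries. Points are libraries, black marks are means ± SD of 3, and all axes start at 0. The keratin share was lowest in HaCaT control (4.15%) and highest in TIGK H2O2 (5.94%), while the mitochondrial share ran the other way (6.18% and 1.43%).

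Because filaments take 1 chain of each type, the summed levels of the types were set side by side as normalized counts per kb of gene length. The ratio of type I to type II was 0.944 ± 0.0385 (SD, n = 3) in HaCaT control, 1.04 ± 0.0354 in HaCaT H2O2, 0.873 ± 0.0243 in TIGK control and 0.900 ± 0.0161 in TIGK H2O2. The HaCaT H2O2 libraries, at 1.00 to 1.07, lay above all others. The ratio depends on the length used for each gene, and without any length it was 0.680, 0.736, 0.608 and 0.615. Without the simple keratins it was 0.797 in TIGK control and 0.819 in TIGK H2O2.

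Basal keratins held 51.1% of the summed keratin level per kb in HaCaT control, 53.7% in HaCaT H2O2, 49.2% in TIGK control and 51.6% in TIGK H2O2. Activation keratins held 41.7%, 40.6%, 40.9% and 38.3% in the same order. These classes thus made up most of the keratin RNA in both lines. Simple keratins held 2.44% and 2.39% in HaCaT and 4.66% and 4.85% in TIGK. Suprabasal keratins held 4.48% ± 0.673 in HaCaT control, 3.05% ± 0.445 in HaCaT H2O2, 4.40% ± 0.218 in TIGK control and 4.48% ± 0.561 in TIGK H2O2. Mucosal and corneal keratins held 0.141% and 0.0975% in HaCaT against 0.755% and 0.717% in TIGK. With lengths of the canonical transcripts of GENCODE in place of the deposited gene lengths, an alternative chosen after seeing the data, the simple share rose to 4.14% and 4.01% in HaCaT against 5.60% and 5.76% in TIGK, and the suprabasal shares fell to 2.83%, 1.92%, 2.78% and 2.84%. No p is given for sums over the family.

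KRT5, which pairs with KRT14 in basal cells, had the most counts of any keratin in all 12 libraries. It stood at 499327, 500626 and 479502 normalized counts in HaCaT control and at 537035, 599433 and 564420 in HaCaT H2O2. In TIGK it stood at 687395, 677967 and 668637 at baseline and at 807497, 789904 and 810587 after H2O2. The groups did not overlap, and every TIGK library was above every HaCaT library. Per kb, KRT14 was higher than KRT5 in HaCaT control (142708 against 114900) and lower in TIGK control (133425 against 157968), and the ratio of KRT5 to KRT14 per kb was 0.806 ± 0.0244 in HaCaT control, 0.736 ± 0.0231 in HaCaT H2O2, 1.18 ± 0.0298 in TIGK control and 1.17 ± 0.0805 in TIGK H2O2. With canonical lengths these ratios were 1.11, 1.01, 1.63 and 1.61, so the order of the genes in HaCaT depends on the length and the order of the lines does not.

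**Figure D2:**
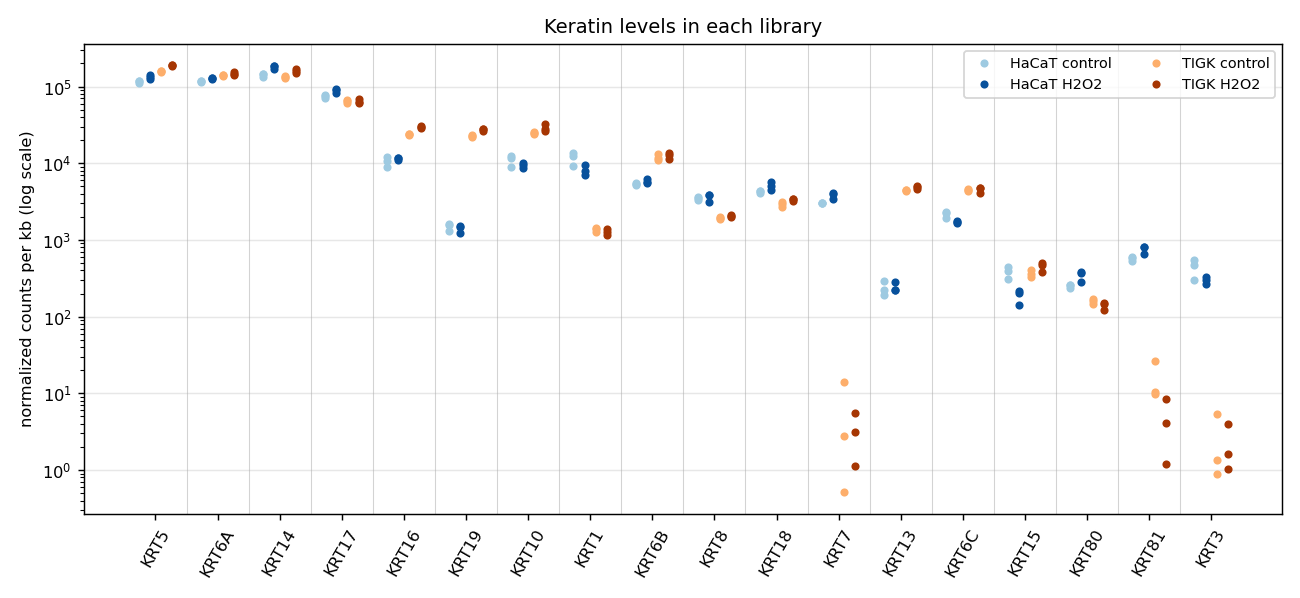
Normalized counts per kb of gene length (log scale) of the 18 keratins that reached a mean of 500 normalized counts in at least 1 group. Genes are in order of their highest group mean of normalized counts. Each point is a library, and colours mark the 4 groups. KRT5, KRT6A, KRT14 and KRT17 lie on top in all groups, KRT19 and KRT13 are high in TIGK, and KRT7, KRT81 and KRT3 drop to a few counts in TIGK.

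KRT1 and KRT10, the pair of differentiating epidermis, had a ratio per kb of 1.07 ± 0.0415 in HaCaT control and 0.861 ± 0.0740 in HaCaT H2O2, but of 0.0550 ± 0.00370 in TIGK control and 0.0442 ± 0.00147 in TIGK H2O2. TIGK thus held KRT10 RNA with little RNA of its usual partner. The ratio of KRT8 to KRT18, the pair of simple epithelia, was 0.815, 0.712, 0.664 and 0.608 in the 4 groups, or 1.38, 1.21, 1.12 and 1.03 with canonical lengths. KRT6A exceeded KRT16 by a ratio of 11.3 ± 1.68 in HaCaT control and 5.85 ± 0.169 in TIGK control. Ratios between genes carry the error of both lengths, whereas the comparison of 1 ratio between groups does not.

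The promoters of 5 keratins are shown as examples from those with a promoter in the RefSeq table used. That table lacks several genes with the contrasts described here. KRT5 is the keratin with the most counts, and KRT10 is the type I gene with little RNA of its partner KRT1 in TIGK. KRT3 was higher in HaCaT control, and KRT34 and KRT27 were higher in TIGK control. Each line gives the 250 bases before the start of the gene in RefSeq on GRCh38.p14, read 5′ to 3′ on the gene's minus strand, at chr12:52520395-52520644, chr17:40822615-40822864, chr12:52796118-52796367, chr17:41382307-41382556 and chr17:40782551-40782800 in this order, and capitals mark the letters TATAAA.
KRT5: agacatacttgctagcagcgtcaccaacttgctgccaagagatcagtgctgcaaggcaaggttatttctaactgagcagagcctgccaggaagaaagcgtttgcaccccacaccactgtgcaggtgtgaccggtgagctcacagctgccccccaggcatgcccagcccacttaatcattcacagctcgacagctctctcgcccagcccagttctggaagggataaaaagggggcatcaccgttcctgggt
KRT10: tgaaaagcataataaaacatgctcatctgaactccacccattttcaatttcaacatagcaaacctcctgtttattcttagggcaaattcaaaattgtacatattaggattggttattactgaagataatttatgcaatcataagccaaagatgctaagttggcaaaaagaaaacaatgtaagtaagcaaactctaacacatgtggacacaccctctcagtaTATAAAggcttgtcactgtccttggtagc
KRT3: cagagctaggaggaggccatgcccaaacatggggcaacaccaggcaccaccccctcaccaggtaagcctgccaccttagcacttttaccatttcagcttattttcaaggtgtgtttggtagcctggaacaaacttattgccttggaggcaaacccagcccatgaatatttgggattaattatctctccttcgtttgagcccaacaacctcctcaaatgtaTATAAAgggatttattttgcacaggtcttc
KRT34: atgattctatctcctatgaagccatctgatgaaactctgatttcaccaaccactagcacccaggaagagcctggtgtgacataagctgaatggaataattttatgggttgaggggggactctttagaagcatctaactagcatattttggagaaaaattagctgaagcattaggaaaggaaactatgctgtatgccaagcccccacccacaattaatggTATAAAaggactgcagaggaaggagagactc
KRT27: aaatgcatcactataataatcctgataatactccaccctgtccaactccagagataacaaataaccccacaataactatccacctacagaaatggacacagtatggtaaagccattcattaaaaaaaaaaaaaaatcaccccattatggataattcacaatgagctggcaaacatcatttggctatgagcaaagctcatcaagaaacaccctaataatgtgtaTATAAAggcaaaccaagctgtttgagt
The first base of TATAAA lay at position -29 in KRT10, -30 in KRT3, -31 in KRT34 and -27 in KRT27, counted back from the start, and the letters were absent from the KRT5 window. They were also absent from the windows of KRT75, KRT8 and KRT4, which are not shown. The KRT8 window, chr12:52926470-52926719, lies inside the deposited KRT8 gene, chr12:52897187-52949954, and no other KRT8 start was searched. The RefSeq table held a promoter for 34 of the 55 keratins, and 21 of these held TATAAA on either strand (61.8%), against 13.0% of 27305 genes. Most of the 34 averaged under 10 raw counts, mainly genes of hair and of the inner root sheath. The share thus describes mainly keratins with few or no counts in these lines. KRT14, KRT6A, KRT17, KRT16, KRT1, KRT19, KRT7, KRT13, KRT15 and KRT81 had no promoter in the table. TGANTCA was in 0 of the 34 (8.06% of all genes), and GGGCGG in 4 of the 34 (11.8%, against 46.2%). A match of letters is a description of the window alone.

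More keratins differed between the lines than passed the test after H2O2. Of the 30 keratins tested, those that averaged 10 or more raw counts, 9 were higher in HaCaT control and 16 in TIGK control (edgeR quasi-likelihood test, adjusted p under 0.01), where 29.1% and 30.8% of the 16618 genes tested were higher in HaCaT and in TIGK. After H2O2 the counts were again 9 and 16, against 30.2% and 29.8% of all genes tested. The median log2 fold change, HaCaT over TIGK, was -0.35 over the keratins tested and -0.01 over all genes at baseline, and -0.80 and 0.02 after H2O2. By type, 7 of the 17 type II and 2 of the 13 type I genes tested were higher in HaCaT control. In TIGK control 9 of the 17 and 7 of the 13 were higher. At baseline 5 of the 9 keratins higher in HaCaT and 14 of the 16 higher in TIGK differed by more than 2-fold. The share of all genes tested that differed by this much is not given here, so these counts describe the keratins alone.

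Simple keratins split between the lines. KRT7, a type II keratin of glandular and simple epithelia, stood at 12269, 12320 and 12476 normalized counts in HaCaT control and at 57.0, 11.4 and 2.09 in TIGK control, a log2 fold change of 9.02 ± 0.28 (SE, adjusted p = 9.53e-16), or of 10.80 without TIGK control replicate 1. After H2O2 it stood at 13903, 16621 and 16264 in HaCaT and at 4.64, 22.8 and 12.7 in TIGK. All 6 TIGK libraries thus held at most 56 raw reads of KRT7. KRT19, the smallest keratin, ran the other way, with 3676, 3759 and 3045 in HaCaT control against 54985, 52779 and 52044 in TIGK control (log2 fold change -3.93 ± 0.09, adjusted p = 1.07e-17). KRT8 and KRT18 were present in both lines and were moderately higher in HaCaT, at 23999 ± 1001 and 13765 ± 421 normalized counts in HaCaT control and 13357 ± 521 and 9425 ± 686 in TIGK control, with log2 fold changes of 0.85 and 0.55.

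KRT13, the type I keratin of soft oral and oesophageal mucosa, was at 13099, 13094 and 12765 normalized counts in TIGK control and at 849, 653 and 555 in HaCaT control (log2 fold change, HaCaT over TIGK, -4.23 ± 0.12, adjusted p = 1.72e-16). Its textbook partner KRT4 was low in both lines and ran against it, with 164, 106 and 137 in HaCaT control and 58.0, 48.7 and 54.4 in TIGK control (log2 fold change 1.34 ± 0.25, adjusted p = 8.59e-05). The ratio of KRT4 to KRT13 per kb was 0.00364 ± 0.000323 in TIGK control. KRT3, known from the corneal epithelium, was a gene of HaCaT, with 1254, 1090 and 689 normalized counts in HaCaT control against 2.03, 12.4 and 3.14 in TIGK control (log2 fold change 7.40 ± 0.33, adjusted p = 3.10e-13), or 8.56 without TIGK control replicate 2. Its corneal partner KRT12 was under the count limit, with 0 to 6 raw counts in a library. The mucosal name of the class therefore covers genes that went in opposite directions.

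The suprabasal pair went apart as well. KRT1 stood at 33935, 30764 and 22627 normalized counts in HaCaT control and at 3137, 3513 and 3470 in TIGK control, a log2 fold change of 3.11 ± 0.13 (adjusted p = 7.14e-14). KRT10 stood at 26274, 25002 and 18909 in HaCaT control against 52338, 51324 and 54860 in TIGK control, a log2 fold change of -1.18 ± 0.10 (adjusted p = 2.07e-09). Neither gene overlapped between the lines. KRT2, of the upper epidermis, was low and higher in TIGK, and KRT9, of palm and sole, did not pass the test (log2 fold change 0.36, adjusted p = 0.11).

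Among the activation keratins, KRT6A, KRT6B, KRT6C and KRT16 were higher in TIGK control and KRT17 was higher in HaCaT control. KRT16 stood at 29542, 26266 and 22382 normalized counts in HaCaT control and at 58848, 59872 and 57168 in TIGK control (log2 fold change -1.17 ± 0.07, adjusted p = 4.30e-11). KRT6B was at 12407, 12611 and 11960 against 29710, 26595 and 25356 (-1.14 ± 0.07), and KRT6C at 6448, 6659 and 5594 against 13255, 13142 and 12624 (-1.06 ± 0.07). KRT6A, by far the largest of the KRT6 genes, differed by -0.24 ± 0.04 (adjusted p = 0.00011), so the excess in TIGK was larger for the minor KRT6 genes than for the major one, a difference between genes that was not tested. Windows of 150 bases that match another KRT6 gene made up 9.26% of the KRT6A transcript, 12.7% of KRT6B and 16.3% of KRT6C, and how reads of such windows were shared out is not stated. KRT17 differed by 0.22 ± 0.06 (adjusted p = 0.0028), which did not pass without HaCaT control replicate 1 (0.016), HaCaT control replicate 2 (0.012) or TIGK control replicate 3 (0.019).

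Of the basal keratins, KRT5 was higher in TIGK control (log2 fold change, HaCaT over TIGK, -0.46 ± 0.05, adjusted p = 5.36e-08), while KRT14 (0.10 ± 0.06, adjusted p = 0.15) and KRT15 (0.08 ± 0.14, adjusted p = 0.64) did not pass the test. KRT14 stood at 335617, 335449 and 305487 normalized counts in HaCaT control and at 315264, 305847 and 291913 in TIGK control, with overlapping libraries.

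Hair keratins were few and again went both ways. KRT81, a type II hair keratin, stood at 1139, 1128 and 1027 normalized counts in HaCaT control against 50.9, 18.7 and 19.9 in TIGK control (log2 fold change 5.19 ± 0.23, adjusted p = 2.51e-13), or 5.82 without TIGK control replicate 1. KRT34, a type I hair keratin, was at 0 in all 6 HaCaT libraries and at 150, 142 and 153 in TIGK control, which is at least 44.7-fold higher in TIGK against a floor of 3 counts per library. After H2O2 KRT34 was at least 30.6-fold higher in TIGK. KRT75, of the companion layer of the hair follicle, was at 383, 432 and 445 normalized counts in TIGK control and at 0, 8.84 and 0 in HaCaT control, and after H2O2, with HaCaT at 0, the excess in TIGK was at least 111-fold. KRT27, of the inner root sheath, was at 110, 110 and 102 in TIGK control against 15.3, 14.4 and 15.8 in HaCaT control. KRT81 and KRT86 share 25.6% of the windows of the KRT81 transcript, and KRT81 lies within KRT86 on the opposite strand. KRT7 overlaps KRT86 by 2887 bases on the same strand, and how reads of these genes were shared out is not stated. KRT86 was at 3.06 to 7.74 normalized counts in HaCaT control and at 14.2 to 29.3 in TIGK control, against the direction of KRT81 (adjusted p = 0.0039, but 0.028 without HaCaT control replicate 1 and 0.025 without TIGK control replicate 3).

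Of the other keratins tested, KRT84, KRT78 and KRT24 were higher in TIGK control, with means of 46.9, 46.7 and 64.8 normalized counts against 1.98, 4.08 and 10.6 in HaCaT control. KRT80, a filament gene of many epithelia, was higher in HaCaT control (1091 ± 58.8 against 684 ± 51.5, log2 fold change 0.67 ± 0.11, adjusted p = 2.24e-05). KRT23 and KRT79 did not pass at baseline (adjusted p = 0.075 and 0.066). Among the 25 keratins under the count limit the highest raw count in any library was 28, and KRT26, KRT28 and KRT38 had 0 counts in every library, a count that allows up to 3 reads per library. KRT31, KRT37, KRT74, KRT32, KRT77, KRT73, KRT33A, KRT20, KRT76, KRT83, KRT71, KRT36, KRT33B, KRT12, KRT72, KRT222, KRT40, KRT39, KRT85, KRT82, KRT25 and KRT35 made up the rest. These are genes of hair, of the inner root sheath, of the cornea and of the gut, with a few of skin and palate.

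**Figure D3:**
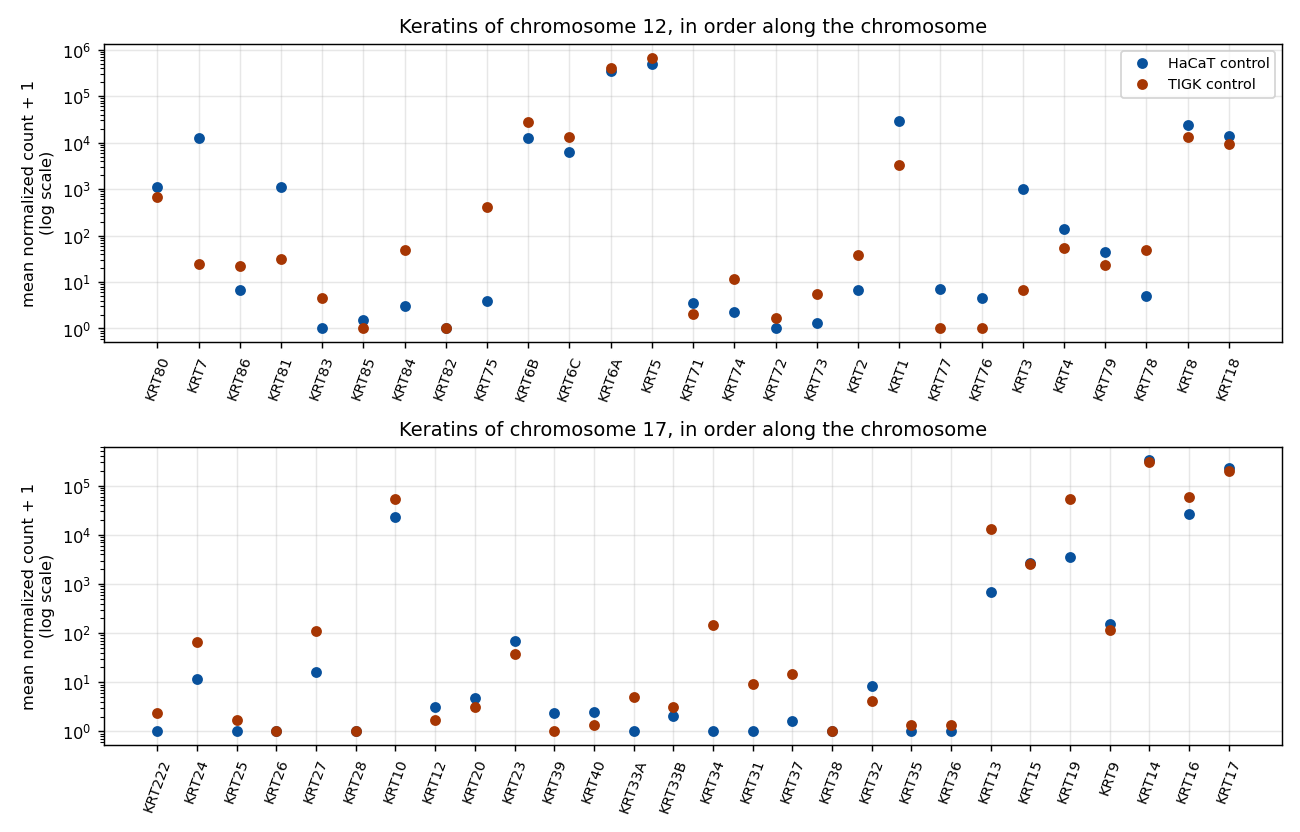
Mean normalized count + 1 (log scale, n = 3) of the 55 keratins in HaCaT control and TIGK control, in order of position along the clusters on chromosome 12 (top) and chromosome 17 (bottom). KRT7, KRT81, KRT3 and KRT4 are higher in HaCaT, and KRT75, KRT6B, KRT6C, KRT6A and KRT5 are higher in TIGK.

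After H2O2, 24 of the 25 keratins of baseline differed again in the same direction, KRT15 now passed and KRT86 did not (adjusted p = 0.015). The share of all genes called at baseline that did so is not given here, so this count is no result about keratins in particular. The log2 fold changes, HaCaT over TIGK, ran from 7.31 ± 0.27 for KRT81 and 10.13 ± 0.29 for KRT7 to -4.27 ± 0.09 for KRT19 and -4.31 ± 0.12 for KRT13 among the keratins with at least 500 normalized counts in a group. Without TIGK H2O2 replicate 2 that of KRT81 was 7.94. KRT4 after H2O2 did not pass without HaCaT H2O2 replicate 1 (adjusted p = 0.056), HaCaT H2O2 replicate 3 (0.018), TIGK control replicate 2 (0.013), TIGK H2O2 replicate 2 (0.056) or TIGK H2O2 replicate 3 (0.023).

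The keratins lie in 2 clusters, 27 genes within chr12:52168996-52952901 and 28 genes within chr17:40654665-41624842 of GRCh38. Along chromosome 12, KRT80, KRT7 and KRT81 were higher in HaCaT control, with KRT86, between KRT7 and KRT81, higher in TIGK. The run KRT84, KRT75, KRT6B, KRT6C, KRT6A and KRT5 was higher in TIGK at each gene tested, as was KRT2 further on. KRT1, KRT3 and KRT4 were higher in HaCaT, KRT79 did not pass, KRT78 was higher in TIGK, and KRT8 and KRT18 at the end of the cluster were higher in HaCaT. Along chromosome 17, the genes tested were higher in TIGK or did not pass the test, up to KRT17 at the far end, which was higher in HaCaT. KRT13, KRT15 and KRT19 are direct neighbours, and KRT15 between them did not pass at baseline. Annotated pseudogenes held counts of 1.61% to 2.52% of the KRT16 counts, 1.57% to 3.47% of the KRT8 counts, and at most 0.802% of those of KRT17, KRT18 and KRT19. KRT8 and KRT18 overlap by 1084 bases on opposite strands, and it is not stated whether the counting used strand. KRT10 and TMEM99 overlap by 3490 bases on opposite strands as well, and TMEM99 had 340 to 625 raw counts in a library. KRT7-AS, which overlaps KRT7, had 161 to 219 raw counts in HaCaT control, 61 to 82 in HaCaT H2O2 and at most 2 in TIGK, so reads of the 2 genes cannot be told apart with certainty, and KRT7 exceeded it by far.

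After H2O2, KRT5 and KRT14 rose in both lines, KRT15, KRT1 and KRT6C fell in HaCaT, and most keratins did not pass the test. In HaCaT 5 of the 30 tested rose and 4 fell, against 18.9% and 15.2% of all genes tested that rose and fell. In TIGK 3 rose and 1 fell, against 10.2% and 12.9%. The median log2 fold change in HaCaT was -0.10 over the keratins tested and 0.04 over all genes, and in TIGK 0.06 and 0.01. The shares of keratins called were thus near or under those of all genes. The genes called were KRT5, KRT14, KRT17, KRT18 and KRT80 (higher) and KRT15, KRT1, KRT6C and KRT27 (lower) in HaCaT, and KRT5, KRT14 and KRT16 (higher) and KRT81 (lower) in TIGK.

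**Figure D4:**
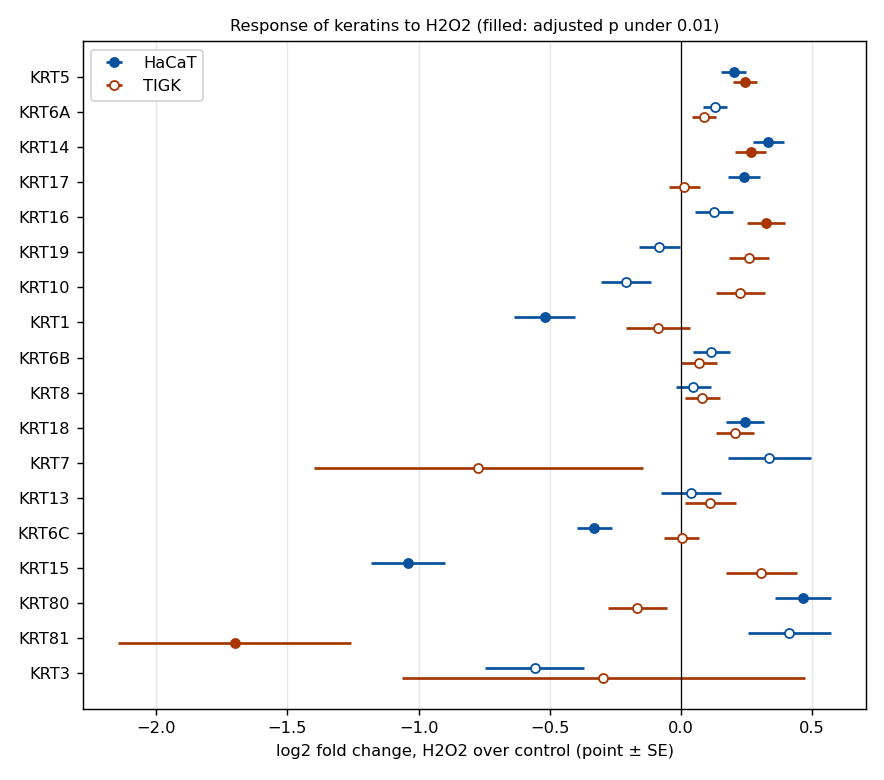
Log2 fold change of 18 keratins after H2O2 in HaCaT (blue) and TIGK (red), with bars for the SE of the edgeR model on 3 libraries per group. Filled points passed adjusted p under 0.01. KRT5 and KRT14 rose in both lines, and KRT15 fell in HaCaT by 1.04 on the log2 scale.

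KRT5 and KRT14 rose in both lines, while several other keratinocyte markers fell. Of the 8 markers that are no keratins, 5 fell in HaCaT, against 15.2% of all genes tested. Their log2 fold changes were -0.62 for TP63, -0.48 for ITGA6, -0.47 for CDH1, -0.52 for DSG3 and -0.44 for COL17A1. In TIGK 4 of the 8 fell, TP63 at -0.25, ITGA6 at -0.33, CDH1 at -0.54 and COL17A1 at -0.33, and PERP rose (0.20). Of all genes tested, 12.9% fell and 10.2% rose in TIGK. The part of these changes in the keratin results was not tested. KRT5 rose by a log2 fold change of 0.20 ± 0.05 in HaCaT (adjusted p = 0.0018) and of 0.24 ± 0.05 in TIGK (adjusted p = 0.00052). KRT14 went from 335617, 335449 and 305487 to 382462, 423934 and 423024 normalized counts in HaCaT (0.33 ± 0.06, adjusted p = 0.00018) and from 315264, 305847 and 291913 to 391329, 363822 and 343081 in TIGK (0.27 ± 0.06, adjusted p = 0.0018). Treated and untreated libraries of these genes did not overlap in either line. KRT6A did not pass in HaCaT (0.13 ± 0.04, adjusted p = 0.023) or in TIGK (0.09 ± 0.04, adjusted p = 0.13). The rise of KRT5 in HaCaT did not pass without HaCaT control replicate 3 (adjusted p = 0.011), TIGK control replicate 2 (0.017), TIGK H2O2 replicate 2 (0.016) or TIGK H2O2 replicate 3 (0.012), and that of KRT14 in TIGK did not pass without TIGK control replicate 3 (0.011) or TIGK H2O2 replicate 1 (0.017).

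KRT15, a basal type I keratin known as a marker of resting basal and stem-like cells, fell in HaCaT. It stood at 3171, 2759 and 2214 normalized counts in HaCaT control and at 1431, 1530 and 1006 in HaCaT H2O2. In TIGK it stood at 2848, 2347 and 2541 at baseline and at 2676, 3376 and 3502 after H2O2. All treated HaCaT libraries lay below all untreated ones, and the TIGK groups overlapped. The log2 fold change was -1.04 ± 0.14 in HaCaT (adjusted p = 1.07e-05) and 0.31 ± 0.14 in TIGK (adjusted p = 0.087), and the difference of the responses, TIGK minus HaCaT, was 1.35 ± 0.20 (adjusted p = 0.00016). After H2O2 KRT15 was therefore lower in HaCaT than in TIGK (log2 fold change -1.27 ± 0.14, adjusted p = 1.59e-07), while at baseline the lines did not pass. Leaving out any library in turn kept the fall in HaCaT and the difference of the responses past the limit.

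Of the suprabasal pair, KRT1 fell in HaCaT and KRT10 did not pass. KRT1 went from 33935, 30764 and 22627 to 23597, 19679 and 17643 normalized counts (-0.52 ± 0.12, adjusted p = 0.0014), with the lowest untreated library below the highest treated one, and it did not pass without HaCaT control replicate 1 (adjusted p = 0.013). KRT10 was at 21479, 20606 and 18667 after H2O2 (-0.21 ± 0.09, adjusted p = 0.080), and passed without HaCaT control replicate 3 (0.0021). In TIGK neither passed, with log2 fold changes of -0.09 ± 0.12 for KRT1 and 0.23 ± 0.09 for KRT10.

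Activation keratins did not move as 1 group. KRT17 rose in HaCaT from 242612, 235511 and 222007 to 254595, 282529 and 289867 (0.24 ± 0.06, adjusted p = 0.0028) and did not pass in TIGK (0.01 ± 0.06, adjusted p = 0.89). KRT16 rose in TIGK from 58848, 59872 and 57168 to 75554, 73142 and 71737 (0.33 ± 0.07, adjusted p = 0.0018) and did not pass in HaCaT (0.12 ± 0.07, adjusted p = 0.17). KRT6C fell in HaCaT from 6448, 6659 and 5594 to 4761, 5094 and 5019 (-0.33 ± 0.07, adjusted p = 0.00062), with KRT6B at 0.12 ± 0.07. As fitted on all libraries, for none of these did the difference of the responses pass, with adjusted p of 0.088 for KRT17, 0.22 for KRT16 and 0.028 for KRT6C. That of KRT6C passed with DESeq2 (0.0073), without a filter on low counts (0.00026), without HaCaT control replicate 3 (0.0080) and without TIGK H2O2 replicate 3 (0.0054). The rise of KRT17 did not pass without HaCaT control replicate 2 (0.011) or 3 (0.020), HaCaT H2O2 replicate 2 (0.012), TIGK control replicate 2 (0.018), TIGK H2O2 replicate 2 (0.019) or TIGK H2O2 replicate 3 (0.013), and that of KRT16 in TIGK without TIGK H2O2 replicate 1 (0.011).

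Among the simple keratins, KRT18 rose in HaCaT from 13308, 13848 and 14138 to 14347, 16426 and 18154 (0.24 ± 0.07, adjusted p = 0.0096), a call close to the limit that was lost in 9 of the 12 fits without 1 library, at an adjusted p of up to 0.053. KRT8 did not pass (0.05 ± 0.07), and KRT7 was at 0.34 ± 0.16 (adjusted p = 0.088) in HaCaT. KRT18 in TIGK did not pass as fitted on all libraries, with log2 fold changes of 0.15 to 0.27 without 1 library. It passed in the fits without HaCaT H2O2 replicate 1 (adjusted p = 0.0051) or HaCaT H2O2 replicate 3 (0.0081). The difference of the KRT18 responses ran from -0.091 to 0.062 without 1 library, so a rise particular to HaCaT was not seen. KRT19 in TIGK, at 54985, 52779 and 52044 before and 61840, 64877 and 64427 after H2O2, had a log2 fold change of 0.26 ± 0.08 without overlap of the libraries and an adjusted p of 0.013. It passed with DESeq2 (0.0041) and in fits without HaCaT control replicate 3 (0.0056), HaCaT H2O2 replicate 1 (0.0015) or HaCaT H2O2 replicate 3 (0.0061). KRT13 did not pass in either line, at 0.04 ± 0.11 in HaCaT and 0.11 ± 0.10 in TIGK.

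KRT80 rose in HaCaT from 1024, 1133 and 1117 to 1633, 1666 and 1215 normalized counts (0.46 ± 0.11, adjusted p = 0.0016) and was at -0.17 ± 0.11 in TIGK (adjusted p = 0.26). The difference of the responses was -0.63 ± 0.15 with an adjusted p of 0.012, which did not pass the limit of 0.01, but it passed with DESeq2 (0.0038) and without HaCaT H2O2 replicate 3 (0.00034). The rise in HaCaT did not pass without HaCaT control replicate 1 (0.012), HaCaT H2O2 replicate 1 (0.013) or HaCaT H2O2 replicate 2 (0.014). KRT27 fell in HaCaT from 15.3, 14.4 and 15.8 to 2.23, 0 and 4.27 normalized counts, at most 20 raw reads in a library (-2.70 ± 0.53, adjusted p = 0.00042, or -3.60 without HaCaT H2O2 replicate 3). This fall did not pass in the fit of the HaCaT groups alone (-2.74, adjusted p = 0.012).

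KRT81 was the other keratin whose responses differed between the lines. In TIGK it went from 50.9, 18.7 and 19.9 to 2.32, 16.2 and 7.92 normalized counts, or 50, 18 and 19 to 2, 17 and 10 raw reads. In HaCaT it went from 1139, 1128 and 1027 to 1280, 1554 and 1552. The log2 fold change was -1.70 ± 0.44 in TIGK (adjusted p = 0.0058) and 0.41 ± 0.16 in HaCaT (adjusted p = 0.038), and the difference of the responses was -2.11 ± 0.47 (adjusted p = 0.0062). The TIGK response did not pass without TIGK control replicate 1 (0.061), TIGK H2O2 replicate 1 (0.027) or TIGK H2O2 replicate 3 (0.037). It was -1.07 without TIGK control replicate 1 and -2.36 without TIGK H2O2 replicate 2, and the difference was -1.48 and -2.74 without these libraries. The difference did not pass without any 1 of 7 libraries, with adjusted p of 0.011, 0.012 and 0.013 without HaCaT control replicate 1, 2 and 3, of 0.015 without HaCaT H2O2 replicate 2, of 0.044 without TIGK control replicate 1, of 0.021 without TIGK H2O2 replicate 1 and of 0.039 without TIGK H2O2 replicate 3.

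Over all keratins the difference of the responses passed for 1 gene that was higher in TIGK and 1 that was lower, KRT15 and KRT81, against 2.32% and 2.98% of the genes tested. For the other 16 keratins with at least 500 normalized counts in a group it did not pass, with adjusted p from 0.012 to 0.90. The HaCaT and TIGK responses use separate control libraries, while the comparisons between the lines share their libraries with the responses.

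Keratin filaments are tied to desmosomes and to the rest of the cytoskeleton by linker proteins, and 11 of these genes were tested beside the keratins. After H2O2, 7 fell in HaCaT and 5 fell in TIGK, against the 15.2% and 12.9% of all genes tested. EPPK1, which encodes epiplakin, fell most in both lines, from 1291 ± 31.0 to 352 ± 63.0 normalized counts in HaCaT (-1.88 ± 0.10, adjusted p = 8.07e-11) and from 6511 ± 679 to 2452 ± 103 in TIGK (-1.41 ± 0.09, adjusted p = 4.14e-10). PLEC, the gene of plectin, fell from 84992 ± 4079 to 29573 ± 4296 in HaCaT (-1.52 ± 0.09, adjusted p = 2.69e-10) and from 190960 ± 20296 to 82607 ± 3814 in TIGK (-1.21 ± 0.09, adjusted p = 5.11e-09). The linker genes are long, with a median gene length of 9054 bases against 2505 for the keratins tested and 4447 for all genes tested, and the part of length in their fall was not tested. The difference of the responses passed for 3 of the 11 linkers, all higher in TIGK, against 2.32% of all genes tested. These were DSP, PPL and PKP1, named after their values were seen. Their differences, TIGK minus HaCaT, were 0.46 ± 0.11, 0.48 ± 0.11 and 0.48 ± 0.09 (edgeR, adjusted p = 0.0082, 0.0074 and 0.0012). Their log2 fold changes were -0.90, -0.58 and -0.48 in HaCaT and -0.44, -0.11 and -0.0010 in TIGK, where PPL and PKP1 did not pass.

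At baseline 8 of the 11 linkers were higher in HaCaT and 2, PLEC and EPPK1, in TIGK, against 29.1% and 30.8% of all genes tested, and after H2O2 the counts were 5 and 2, against 30.2% and 29.8%. Of 15 intermediate filament genes other than keratins, 10 passed the count limit. LMNB1, of the nuclear lamina, rose in HaCaT (0.60 ± 0.05, adjusted p = 6.11e-08) and in TIGK (0.39 ± 0.05, adjusted p = 9.38e-06), and NEFL, a neurofilament gene, fell in TIGK (-0.43 ± 0.10, adjusted p = 0.0025). Between the lines, 5 of the 10 were higher in HaCaT and 5 in TIGK at baseline.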

How the data were processed

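RNA of 12 libraries was analysed, 3 in each of 4 groups assigned by their titles. The authors deposited raw read counts per gene of GRCh38 for 58735 genes, with 0 unused columns of sample values and 0 lines without a gene. The submitters' processing notes name HISAT2 in versions 2.0.0 and 2.0.5, StringTie 1.3.3b, featureCounts 1.5.0-p3 and DESeq2. Files of the authors' own comparisons, with fold changes and p-values, were not used. The annotation release, the use of strand and the handling of reads that map to several genes are not given in the sources used here, which bears on near-identical and overlapping keratins.

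The 16618 genes that averaged 10 or more raw counts entered edgeR 4.0.16 in R 4.3.3, where all libraries were scaled by TMM and fitted in 1 quasi-likelihood model by group. P-values were adjusted by Benjamini-Hochberg across these genes, with a limit of 0.01, and SE is the log2 fold change over the root of F. Levels per kb use the deposited gene length. DESeq2 1.42.0, other scalings, filters, limits, a replicate block and fits without each library were alternatives. Python 3.11.15 with matplotlib 3.10.9 drew the figures. Keratins with at least 500 normalized counts in a group were drawn by library, and library values were printed for only some of them and some groups. Of the linkers and other filament genes, those with the 2 largest changes past the limit in each line were given. Classes, linkers and markers were listed from general knowledge, and all members and lists were chosen with earlier results of these data known. Replicates differed by more than counting noise, so their spread limits the precision.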

Additional observations from a re-analysis of the deposited data

Results flagged for a closer look

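KRT15 and KRT81 were flagged because the responses of the lines to H2O2 differed by the test of the difference itself. For KRT15 the difference, TIGK minus HaCaT, was 1.35 on the log2 scale (edgeR, adjusted p = 0.00016), with a fall in 3 of 3 treated HaCaT libraries below all untreated ones. It ran from 1.18 to 1.47 over the fits without 1 library and passed in each. For KRT81 the difference was -2.11 (adjusted p = 0.0062), it rested on 2 to 50 raw reads per TIGK library, and the adjusted p was 0.011 with DESeq2. It ran from -2.74 without TIGK H2O2 replicate 2 to -1.48 without TIGK control replicate 1, and it did not pass without any 1 of 7 libraries.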

How the results depend on the processing

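The counts of keratins called between the lines, 25 at baseline and 25 after H2O2, stayed within 1.5 times under all alternatives. The HaCaT response had 9 calls, 6 to 11 without 1 library and 2 with a log2 fold change over 1 required. In the fit of the HaCaT groups alone it had 8, of which 5 were shared. KRT5, KRT17, KRT18 and KRT27 were lost there, and KRT7, KRT81 and KRT3 were gained. The TIGK response had 4, against 8 without a filter on low counts, 7 at a limit of 0.05, 1 with a log2 fold change over 1 required and 1 to 6 without 1 library. The difference of the responses had 2, against 4 with DESeq2, 9 without a filter, 7 at a limit of 0.05 and 1 to 4 without 1 library. The fit without a filter gave more calls with nearly the same fold changes, and the cause was not tested. The correlation of same-numbered samples' deviations ran from -0.12 to 0.026 over 18 pairs with 0 over 0.1. For samples of different number it ran from -0.029 to 0.12 over 36 pairs with 1 over 0.1. No effect shared by replicate number was thus seen, which does not settle whether samples were handled as pairs. With the replicate number as a block the counts were 8, 3, 25, 25 and 1 for the responses of HaCaT and TIGK, the lines at baseline and after H2O2 and the difference, and KRT18 in HaCaT and KRT81 in TIGK and in the difference no longer passed. Outside the mitochondrial chromosome the keratin share was 4.42% in HaCaT control, 4.97% in HaCaT H2O2 and 5.34% in TIGK control. The type I to type II ratio was 0.680, 0.736, 0.608 and 0.615 without lengths, 0.797 and 0.819 in TIGK control and TIGK H2O2 without simple keratins, and 0.861 in TIGK H2O2 with canonical lengths, an alternative chosen after seeing the data. Of the log2 fold changes recomputed for single keratins, 1890 kept direction and side of the limit, 62 fell and 40 rose across the limit, and 42 changed sign, none of which was past the limit as reported. Differences of the responses changed sign to 0.0062, 0.017 and 0.021 for KRT6A, 0.00073, 0.011 and 0.015 for KRT6B and 0.0093, 0.020 and 0.024 for KRT18, with factors made without keratins and mitochondrial genes, without a filter and with filterByExpr. KRT6C in TIGK was at -0.0028 in the fit of the groups compared alone and at -0.00013 with the block. Without 1 library the differences ran from -0.073 to 0.048 for KRT6A, -0.12 to 0.046 for KRT14, -0.10 to 0.087 for KRT6B, -0.091 to 0.062 for KRT18, -1.64 to 0.68 for KRT7, -0.12 to 0.20 for KRT13 and -0.37 to 1.47 for KRT3. The TIGK response ran from -0.030 to 0.079 for KRT17, -1.31 to 1.02 for KRT7, -0.029 to 0.097 for KRT6C and -0.92 to 0.87 for KRT3, the HaCaT response of KRT13 from -0.094 to 0.23, and KRT15 between the untreated lines from -0.049 to 0.21. Depth limits KRT7, KRT81 and KRT3 in TIGK, where libraries held 2 to 56 raw reads.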
